A study of Mus musculus with 8 samples.

Results

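The 42 genes described here encode the presynaptic machinery that loads, docks, primes, fuses and retrieves synaptic vesicles. They were taken by symbol from a given list, and their 246 transcripts were summed per gene, out of 53392 genes and 136202 transcripts in all. The R342X mutants carry a change in Phf6, a gene on the X chromosome whose product sits in the nucleus and carries PHD-type zinc fingers, and whose loss in people underlies Börjeson-Forssman-Lehmann syndrome. Cortex was taken from mutants of the FVB/N strain on postnatal day 0 (4 libraries) and from wild-type mice of the same strain and age (4 libraries). The labels name the mutants only by this mutation and give no zygosity, sex, litter or animal for any library. The question was how gene expression in the mouse cortex differs with the mutation.

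At a presynaptic terminal, transmitter is packed into vesicles, vesicles are tethered at the active zone, and a rise in calcium drives their fusion with the plasma membrane. Synaptobrevin on the vesicle and syntaxin and SNAP-25 on the target membrane zip together as the SNARE complex, synaptotagmins sense calcium, and complexins hold and prime the complex. Munc13 and RIM proteins make vesicles ready for fusion, and dynamin, amphiphysin and synaptojanin bring the membrane back by endocytosis. In the rodent cortex most synapses form after birth, when many neurons are still extending axons.

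Sequencing depth ran between 30469745 and 39453169 estimated reads in mutants and between 48841467 and 74266937 in wild type, so every wild-type library was deeper than every mutant library. Phf6 was tested first as a check of the labels. It was measured at 42.6, 39.3, 43.1 and 43.6 CPM in mutant replicates 1 to 4, against 91.9, 77.8, 74.3 and 72.1 CPM in wild-type replicates 1 to 4, where CPM is the TMM-scaled read count relative to library size. Every mutant lay below every wild-type library, and the log2 fold change, mutant over wild type throughout, was −0.90 ± 0.08 (SE, adjusted p = 0.00227). A principal component analysis of all tested genes split the libraries, on its leading axis (35.3% of the variance), into 2 sets. Library set 1 held mutant replicates 1 to 3 with wild-type replicate 1, and library set 2 held mutant replicate 4 with wild-type replicates 2 to 4. A difference given below within library set 1 therefore rests on wild-type replicate 1 alone for wild type. Within library set 2 it rests on mutant replicate 4 alone for mutants. These sets follow genotype in part, so the folds below are also given from a model that holds the set, called set-adjusted folds. What the sets represent is not given in the labels and was not tested. Reads of transcripts annotated as retained introns made up 3.67 to 3.87% of reads in library set 1 and 4.05 to 4.22% in library set 2. The part of this difference in the gene and transcript results was not tested.

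None of the 42 genes passed the test of genotype across all 20097 tested genes, but most of them leaned the same way. At an adjusted p under 0.05, 0 of the 42 were called in either direction, against 0.0199% of all tested genes (4 genes, all lower in mutants). At an unadjusted p under 0.05, 16 of the 42 (38.1%) were higher in mutants and 0 were lower, against 6.89% of all tested genes higher and 6.84% lower. The fold change was above 0 for 37 of the 42, against 50.3% of all tested genes, and the median log2 fold change was 0.10 for the 42 and 0.001 for all tested genes. When the model also held the library set, 0 of the 42 were called, against 0.602% of all tested genes. In that fit 16 of the 42 were higher at an unadjusted p under 0.05 and 0 lower, against 6.48% of all tested genes higher. Of the 42, 31 had a fold above 0 in that fit, against 48.5% of all tested genes, and the median was 0.05. Because the labels do not say that the libraries came from separate animals, these p-values measure only the spread between these libraries, which may be technical. The 42 genes were chosen with earlier results of these data known. Their shares beside those of all tested genes therefore describe the list and do not test it.

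The median of the 42 genes, as log2 CPM over each gene's wild-type mean, was 0.12, 0.20, 0.11 and 0.03 in mutant replicates 1 to 4. In wild-type replicates 1 to 4 it was 0.06, −0.02, 0.03 and −0.10. Mutant replicate 4 therefore lay among the wild-type libraries, below wild-type replicate 1. Summed over the 42 genes, TPM (a relative transcript abundance that allows for transcript length) averaged 4413 ± 233 in mutants and 3994 ± 241 in wild type (SD, n = 4 each). In bulk tissue, a change in the number of cells of a type and a change in RNA per cell cannot be told apart.

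**Figure D1:**
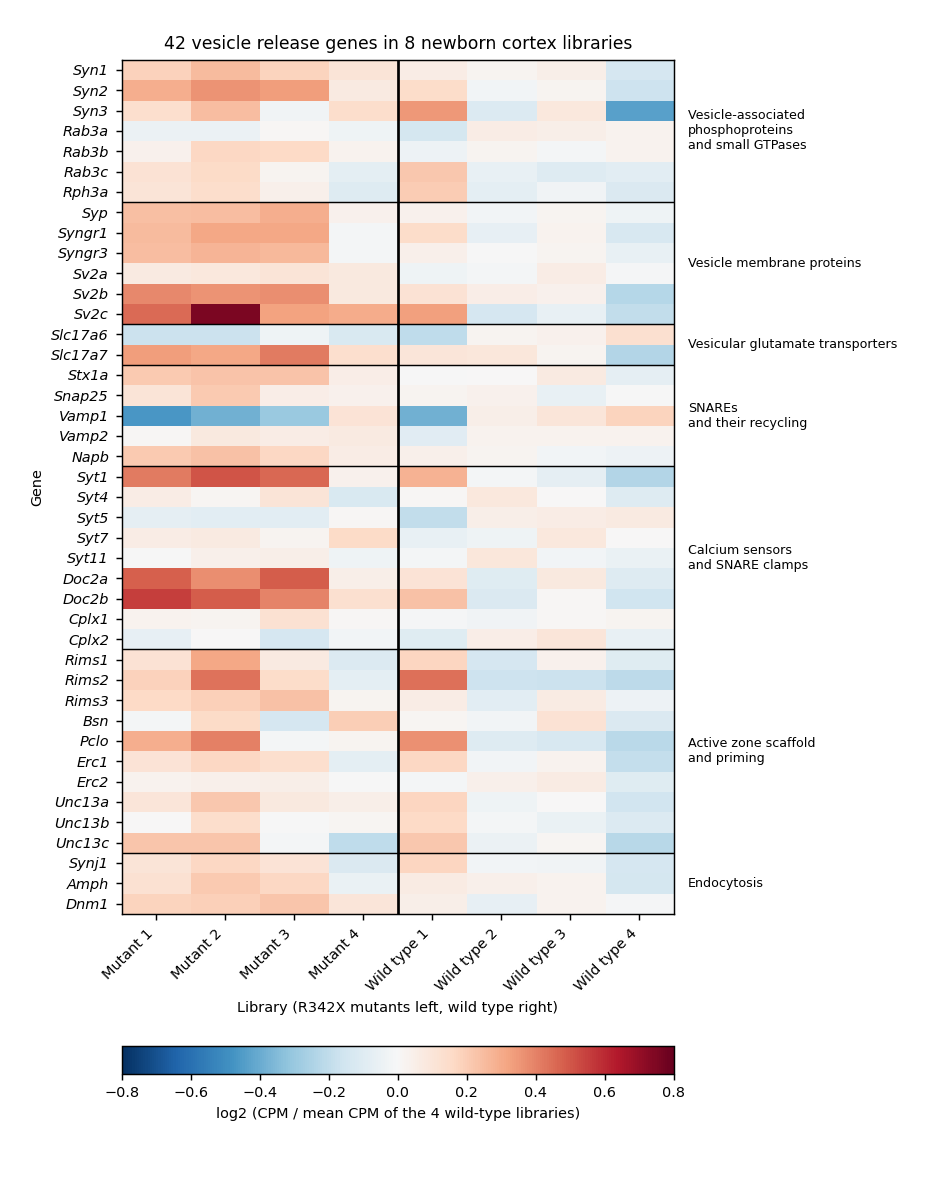
The map shows, for each of the 42 genes (rows, grouped by role) and each library (columns, mutants left of wild type), log2 of CPM over the mean CPM of the 4 wild-type libraries. Mutant replicates 1 to 3 are mostly red, mutant replicate 4 is mostly pale with a median of 0.03, and wild-type replicate 1 is redder than the other wild-type libraries with a median of 0.06.

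By TPM in wild type, Vamp2 stood highest at 411 TPM, followed by Rab3a at 331, Snap25 at 249, Syt5 at 237, Cplx2 at 223 and Syp at 216. The lowest were Vamp1 at 10.4 TPM, Sv2c at 4.96 TPM and Unc13c at 2.55 TPM. Vamp2 is the vesicle SNARE and Rab3a the vesicle GTPase of most forebrain synapses. The lowest count of any of the 42 was that of Unc13c, a Munc13 paralog, with at least 379 estimated reads in every library.

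The 6 vesicle membrane proteins were the group with the most genes at an unadjusted p under 0.05, namely all 6. Synaptophysin (Syp), the abundant membrane protein used to mark synapses, was measured at 325, 326, 335 and 282 CPM in mutant replicates 1 to 4, against 282, 270.1, 278 and 268 CPM in wild-type replicates 1 to 4. Its fold was 0.21 ± 0.06 (adjusted p = 0.225), with a set-adjusted fold of 0.14 ± 0.04. Of the 4 mutants, 3 lay above every wild-type library, while mutant replicate 4 lay just under the highest wild-type library. The SV2 proteins are vesicle glycoproteins, of which SV2A is the target of the antiseizure drug levetiracetam.

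Sv2c had the largest fold of the 42, and its libraries were 35.1, 43.2, 32.1 and 31.5 CPM in mutant replicates 1 to 4, against 32.2, 23.4, 24.6 and 22.4 CPM in wild-type replicates 1 to 4. Its fold was 0.47 ± 0.13 (adjusted p = 0.234) and its set-adjusted fold 0.30 ± 0.09, and the groups overlapped only through wild-type replicate 1, which reached 32.2 CPM. Sv2b, measured at 77.1, 75.7, 76.4 and 62.5 CPM in mutant replicates 1 to 4, against 64.1, 61.4, 60.6 and 50.4 CPM in wild-type replicates 1 to 4, had a fold of 0.30 ± 0.09 (adjusted p = 0.244) and a set-adjusted fold of 0.19 ± 0.07. Sv2a had a fold of 0.08 ± 0.04 (adjusted p = 0.357), set-adjusted 0.09 ± 0.04, and was 1 of 5 genes among the 42 with every mutant above every wild-type library. The synaptogyrins Syngr1 and Syngr3, relatives of synaptophysin, had folds of 0.22 ± 0.08 and 0.19 ± 0.07, which were 0.09 ± 0.05 for Syngr1 and 0.11 ± 0.05 for Syngr3 when set-adjusted. With library set added, the median of these 6 genes was 0.12, against 0.21 without it, and the 6 stayed above 0.

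The vesicular glutamate transporters load glutamate into vesicles. Slc17a7 (VGLUT1), the main transporter of mature cortical neurons, was measured at 128, 125, 136 and 111 CPM in mutant replicates 1 to 4, against 108, 108, 103 and 86.3 CPM in wild-type replicates 1 to 4. Every mutant lay above every wild-type library, and the fold was 0.30 ± 0.08 (adjusted p = 0.225). Set-adjusted, it was 0.21 ± 0.07, and the log2 difference was 0.26 within library set 1 and 0.18 within library set 2. Slc17a6 (VGLUT2), which cortical neurons express earlier in rodents, had a fold below 0 that did not pass the test. It averaged 45.1 ± 2.1 CPM over the mutants, against 49.2 ± 4.67 CPM over the wild-type libraries (SD, n = 4 each), a fold of −0.13 ± 0.07 and a set-adjusted fold of −0.05 ± 0.06. Its sign differed between the sets, with log2 differences of 0.08 within library set 1 and −0.18 within library set 2.

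Seen as a share, Slc17a7 took 79.8, 79.6, 78.0 and 76.2% of the TPM of both transporters in mutant replicates 1 to 4. In wild-type replicates 1 to 4 its share was 75.8, 73.8, 72.3 and 67.4%. Every mutant share therefore exceeded every wild-type share, with means of 78.4 ± 1.68% in mutants and 72.3 ± 3.56% in wild type (SD, n = 4 each). The closest libraries were mutant replicate 4 at 76.2% and wild-type replicate 1 at 75.8%. Of 34 shares computed in 13 families, the 2 of this pair were the only ones whose groups did not overlap. The 2 mirror each other, so they are 1 result. How often shares separate in families of other genes was not computed. Whether this share follows the composition of the tissue was not tested.

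**Figure D2:**
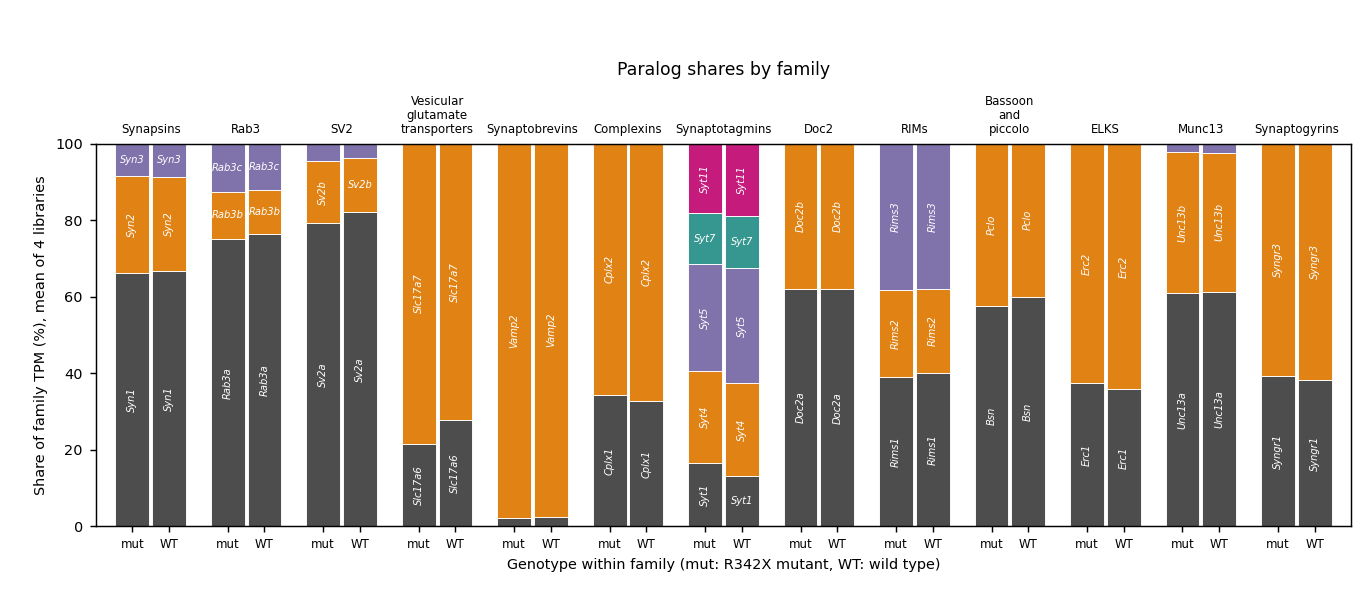
Stacked bars give the mean share of summed TPM (%, vertical axis) that each gene takes in its family, in mutants (left bar of each pair) and wild type (right bar), 4 libraries each. The glutamate transporters are the pair whose libraries did not overlap, and there Slc17a7 holds 78.4% in mutants and 72.3% in wild type.

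In the other families the libraries of both genotypes overlapped for every share. Vamp2 held 97.9% of the synaptobrevin TPM in mutants and 97.5% in wild type, and Syt1 held 16.4 ± 1.91% of the synaptotagmin total in mutants and 13.1 ± 1.99% in wild type (SD, n = 4 each), with overlapping libraries. Sv2a held 79.2 ± 1.47% in mutants and 82.0 ± 1.83% in wild type, also overlapping.

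Among the vesicle-associated phosphoproteins and small GTPases, 2 of 7 had an unadjusted p under 0.05, both synapsins, which tie vesicles to the actin cytoskeleton. Syn1 was measured at 224, 235, 223 and 212 CPM in mutant replicates 1 to 4, against 205, 200.2, 203 and 179 CPM in wild-type replicates 1 to 4. Every mutant exceeded every wild-type library, with a fold of 0.18 ± 0.05 (adjusted p = 0.246), a set-adjusted fold of 0.14 ± 0.05 and log2 differences of 0.15 within library set 1 and 0.13 within library set 2. Syn2, at 97.7, 102, 101 and 83.9 CPM in mutant replicates 1 to 4, against 88.1, 78.7, 81 and 71.1 CPM in wild-type replicates 1 to 4, had a fold of 0.27 ± 0.08 (adjusted p = 0.244) and a set-adjusted fold of 0.16 ± 0.05.

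Rab3a, the GTPase that recruits RIM and rabphilin to vesicles, had a fold close to 0. Its libraries were 222, 222, 230.3 and 224 CPM in mutant replicates 1 to 4, against 207, 238, 236 and 234 CPM in wild-type replicates 1 to 4. Mutant and wild-type values overlapped. The fold was −0.03 ± 0.05 (adjusted p = 0.795), and 0.02 ± 0.05 once the model held the library set. The median fold of the 7 genes in this group was 0.10, and 0.02 once the model held the library set.

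Of the SNAREs and their recycling factors, 2 of 5 had an unadjusted p under 0.05. Stx1a (syntaxin 1A), the plasma membrane SNARE, was measured at 144, 146, 145 and 129 CPM in mutant replicates 1 to 4, against 124, 125, 131 and 118 CPM in wild-type replicates 1 to 4. Its fold was 0.18 ± 0.05 (adjusted p = 0.244), or 0.14 ± 0.05 set-adjusted, with mutant replicate 4 inside the wild-type range. Napb encodes beta-SNAP, the adaptor through which NSF takes spent SNARE complexes apart. It was measured at 129, 131, 125 and 117 CPM in mutant replicates 1 to 4, against 115, 113, 110.3 and 109 CPM in wild-type replicates 1 to 4, so that every mutant exceeded every wild-type library, with a fold of 0.17 ± 0.05 (adjusted p = 0.241) and a set-adjusted fold of 0.12 ± 0.04. Vamp2, the main synaptobrevin, was at 449, 471, 466 and 469 CPM in mutant replicates 1 to 4, against 419, 455, 456 and 456 CPM in wild-type replicates 1 to 4, a fold of 0.05 ± 0.04 (adjusted p = 0.555) and a set-adjusted fold of 0.09 ± 0.04.

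Snap25 averaged 231 ± 12.8 CPM over the mutants, against 216 ± 6.03 CPM over the wild-type libraries (SD, n = 4 each), a fold of 0.10 ± 0.05 (adjusted p = 0.379), set-adjusted 0.07 ± 0.05. The groups overlapped. Vamp1, the low-abundance synaptobrevin, had the lowest fold of the 42 at −0.24 ± 0.15, but it was 0.00 with the library set as a term. Its 3 low mutants (12.5, 13.3 and 14.1 CPM) and wild-type replicate 1 (13.2 CPM) all belonged to library set 1, and the 4 libraries of library set 2 held 17.8 to 19.6 CPM. The libraries of Vamp1 thus separate by library set.

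Snap25 is known to be spliced with either of 2 copies of exon 5, which code for closely related stretches of the protein. The pair is printed because its transcripts were the main Snap25 forms in these files. The copies lie side by side on the plus strand of chromosome 2 in GRCm38, at chr2:136770057-136770174 for the model Snap25-201 and chr2:136769743-136769860 for Snap25-202. They differ at 31 of 118 bases (73.7% identity), and capitals mark the bases that differ.
Snap25-201: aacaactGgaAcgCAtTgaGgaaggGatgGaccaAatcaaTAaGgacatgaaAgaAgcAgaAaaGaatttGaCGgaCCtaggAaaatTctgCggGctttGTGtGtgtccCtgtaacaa
Snap25-202: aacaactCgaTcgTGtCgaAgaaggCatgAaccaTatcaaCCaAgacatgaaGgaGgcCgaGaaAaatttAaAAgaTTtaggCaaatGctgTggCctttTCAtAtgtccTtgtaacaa
Snap25-201 took 63.1 ± 1.93% of Snap25 TPM in mutants and 61.6 ± 0.81% in wild type (SD, n = 4 each). Snap25-202 took 36.7 ± 1.95% in mutants and 38.1 ± 0.82% in wild type. The groups overlapped for both. The 2 models also end in last exons of 1354 and 277 bases, so their shares do not count the inclusion of exon 5 alone.

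Of the 9 calcium sensors and SNARE clamps, 3 had an unadjusted p under 0.05, all higher in mutants. Synaptotagmin 1 (Syt1), the fast calcium sensor of release, was measured at 363, 385, 373 and 278 CPM in mutant replicates 1 to 4, against 329, 269, 258 and 231 CPM in wild-type replicates 1 to 4. Mutant replicates 1 to 3 exceeded every wild-type library and replicate 4 did not, with a fold of 0.36 ± 0.12 (adjusted p = 0.269). With library set added, the fold was 0.16 ± 0.05.

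Doc2a and Doc2b are calcium-binding proteins linked to spontaneous and asynchronous release. Doc2b was measured at 61.7, 59, 55.5 and 46 CPM in mutant replicates 1 to 4, against 49.5, 38.8, 42.4 and 37.6 CPM in wild-type replicates 1 to 4, with a fold of 0.40 ± 0.11 (adjusted p = 0.215) and log2 differences of 0.24 within library set 1 and 0.22 within library set 2. With library set added, it was 0.23 ± 0.06. Doc2a was measured at 37.1, 34.6, 37.3 and 27.6 CPM in mutant replicates 1 to 4, against 28.8, 25, 28.1 and 24.9 CPM in wild-type replicates 1 to 4, with a fold of 0.36 ± 0.10 (adjusted p = 0.229) and a set-adjusted fold of 0.22 ± 0.07.

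Syt5, a sensor carried on vesicles, was measured at 135, 134, 134 and 143 CPM in mutant replicates 1 to 4, against 124, 147, 148 and 149 CPM in wild-type replicates 1 to 4. Its groups overlapped, with a fold of −0.06 ± 0.06 (adjusted p = 0.667), and the sign turned to 0.03 ± 0.04 with the library set as a term. Syt7, the slow, high-affinity sensor, had a fold of 0.08 ± 0.05 in the genotype fit and 0.12 ± 0.04 with the set as a term (unadjusted p = 0.00989). Syt4, Syt11, Cplx1 and Cplx2 had folds of 0.02 ± 0.06, 0.01 ± 0.04, 0.05 ± 0.04 and −0.05 ± 0.05, none with an unadjusted p under 0.05. Set-adjusted, these 4 genes lay between −0.03 (Syt4) and 0.04 (Cplx1), and the sign of Syt4 turned.

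All 10 genes of the active zone scaffold and priming group had folds above 0, with a median of 0.09, but 1 (Rims3) had an unadjusted p under 0.05. With library set added, the median of the 10 was 0.00 and 5 were above 0. Erc2, an ELKS scaffold and the group's highest gene by wild-type TPM, was measured at 219, 222, 223 and 215 CPM in mutant replicates 1 to 4, against 213, 221, 225 and 201 CPM in wild-type replicates 1 to 4. Its fold was 0.03 ± 0.04 (adjusted p = 0.77), set-adjusted 0.02 ± 0.05, and the groups overlapped.

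Wild-type replicate 1 stood apart for 2 of the 10 genes. Rims2, a RIM scaffold, was at 60.9 CPM in that library and between 38.9 and 40.1 CPM in the other wild-type libraries. Piccolo (Pclo) was at 175.7 CPM there and between 117.3 and 127.0 CPM in the others. Folds across the group ran from 0.03 for Erc2 to 0.19 for Pclo, and once the model held the library set Unc13c was the lowest of the group, at −0.09.

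The endocytic GTPase Dnm1 (dynamin 1), which pinches vesicles from the plasma membrane, had the smallest p of the 42. It was measured at 245, 247, 252 and 231 CPM in mutant replicates 1 to 4, against 223, 206, 220.4 and 215 CPM in wild-type replicates 1 to 4. Every mutant exceeded every wild-type library, with a fold of 0.17 ± 0.04 (adjusted p = 0.196), a set-adjusted fold of 0.13 ± 0.04 and log2 differences of 0.15 within library set 1 and 0.11 within library set 2. Synj1, the phosphatase that uncoats vesicles, and Amph, which recruits dynamin, had folds of 0.07 ± 0.08 and 0.11 ± 0.07 with overlapping groups. Set-adjusted, the fold of Synj1 turned sign to −0.05 ± 0.04 and that of Amph was 0.03 ± 0.05.

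**Figure D3:**
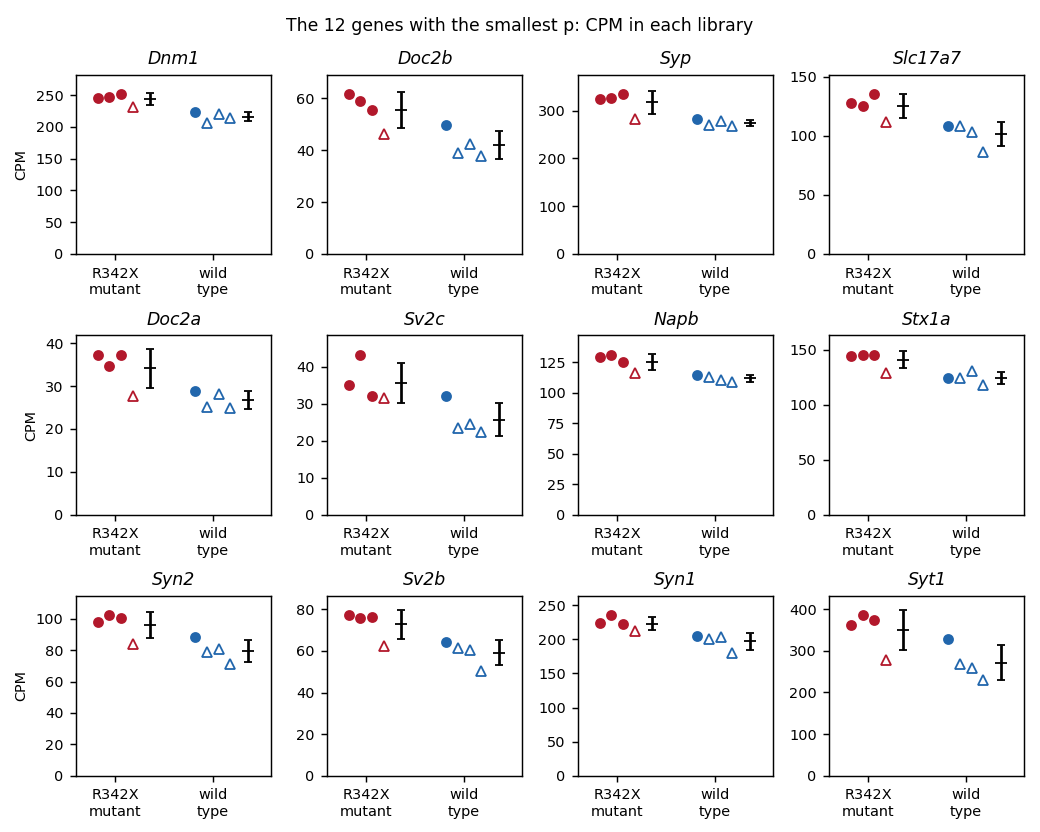
Each panel shows CPM (vertical axis, from 0) in every library for 1 of the 12 genes with the smallest p, with mutants left of wild type. Filled circles are library set 1, open triangles library set 2, and black bars the mean ± SD of 4 libraries. Slc17a7, Syn1, Napb and Dnm1 show every mutant above every wild-type library, and in all 12 panels mutant replicate 4, the open triangle, is the lowest mutant.

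Among the 42, 5 genes had every mutant above every wild-type library, namely Syn1, Sv2a, Slc17a7, Napb and Dnm1, and 0 had every mutant below. Over all tested genes the shares were 2.95% above and 3.2% below. Syn1 and Syp lie on the X chromosome like Phf6, and all other genes named so far lie on autosomes. The use of strand in counting is not given in the sources used here, so reads from exons that 2 genes share on opposite strands may be counted for either. In the GENCODE annotation 1103 of the 2803 exon bases of Doc2a also lie in exons of Ino80e on the other strand, and 875 of the 5211 exon bases of Syp in exons of Gm14703. Syn1 shares 9 exon bases with Araf and 0 with Timp1, and Dnm1 shares 0 with Ciz1, although the spans of these genes overlap.

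**Figure D4:**
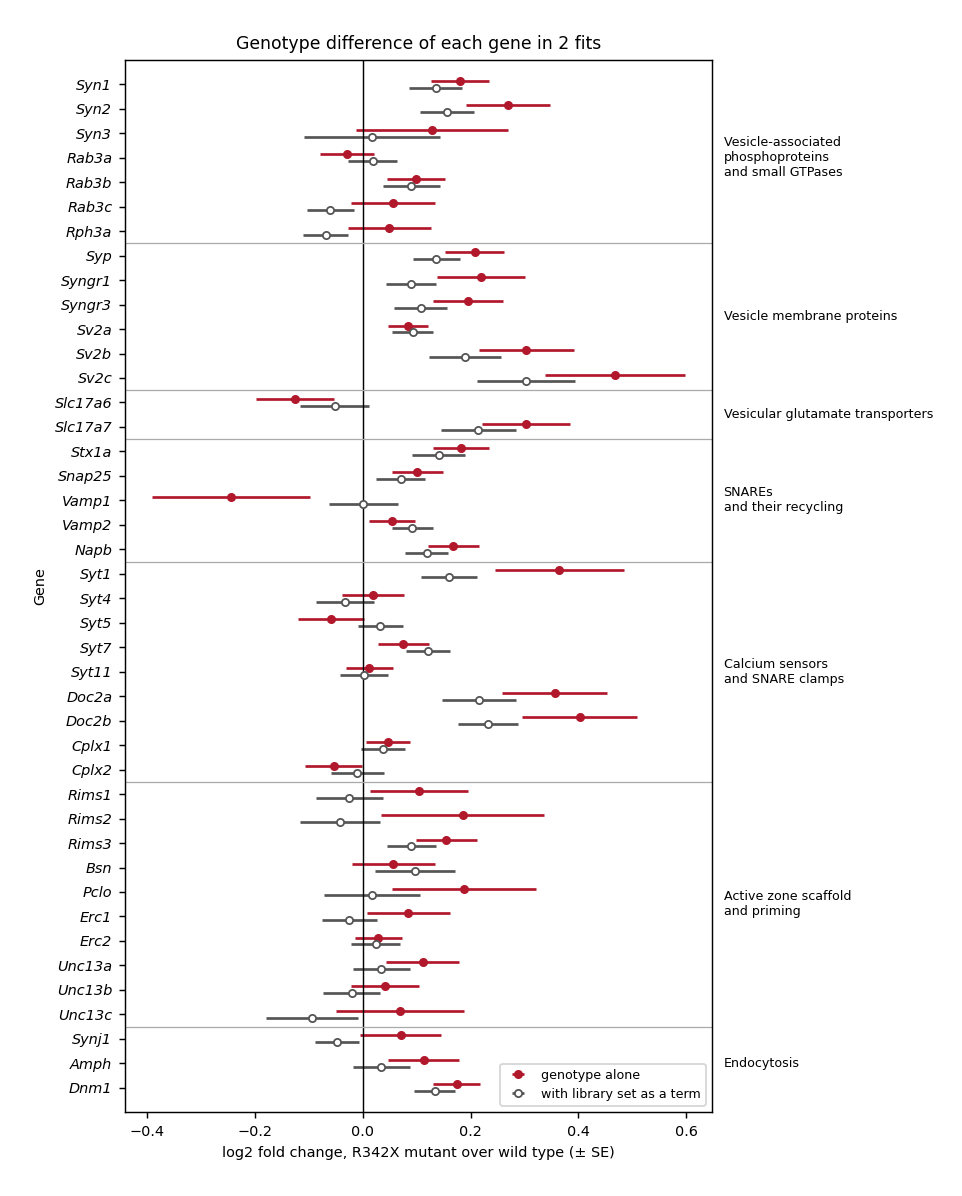
Points give the log2 fold change (horizontal axis, mutant over wild type, bars ± SE) of each gene in the genotype fit (red, filled) and with the library set as a term (grey, open). Folds cluster above 0 in both fits, with medians of 0.10 and 0.05. Vamp1, Rims2 and Syt1 move most between the fits.

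By DESeq2 on the same counts, 7 of the 42 were called, all higher in mutants, against 2.0% of all tested genes called in either direction and 1.13% higher. They were Dnm1, Doc2a, Doc2b, Napb, Slc17a7, Sv2c and Syp. Without mutant replicate 4, edgeR called 12 of the 42, all higher, against 3.37% of all tested genes and 1.72% higher. These 12 were Dnm1, Doc2a, Doc2b, Napb, Slc17a7, Stx1a, Sv2b, Syn2, Syngr1, Syngr3, Syp and Syt1. Mutant replicate 4 was the only mutant of library set 2, so in that fit every mutant belonged to library set 1. Genotype and library set could then be told apart only through wild-type replicate 1, and these calls cannot be assigned to genotype alone. Without wild-type replicate 1, the wild-type library of library set 1, 0 of the 42 were called, against 0.07% of all tested genes. The median log2 fold change of the 42 was 0.15 in that fit, against 0.01 for all tested genes. The 12 genes with the smallest p had adjusted p-values there from 0.0564 (Doc2b) to 0.0774 (Stx1a). Every wild-type library then belonged to library set 2, so genotype and library set could be told apart only through mutant replicate 4.

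The authors' deposited table, which compares the same genotypes, holds a row for each of the 42 genes, and its fold for Phf6 was −0.93, so its folds too run mutant over wild type. By that comparison, the authors' deposited table gave 2 of the 42 an adjusted p under 0.05, against 2.78% of all genes with an adjusted p there. These were Doc2b, with a log2 fold change of 0.20 in the authors' deposited table (adjusted p = 0.0193), and Sv2c, with 0.27 in the authors' deposited table (adjusted p = 0.0305). Dnm1 followed at 0.13 in the authors' deposited table (adjusted p = 0.067). At an unadjusted p under 0.05, 15 of the 42 were higher and 0 lower in the authors' deposited table, against 4.51% and 4.38% of all genes there. The fold was above 0 for 30 of the 42 in the authors' deposited table, with a median of 0.02, against 37 of the 42 and a median of 0.10 in the edgeR fit. These 2 medians are not on the same measure. Doc2a had 0.11 with a standard error of 0.18 in the authors' deposited table, yet an unadjusted p under 0.05 there. Such a fold is too small for its p to be an unshrunken one. The share above 0 over all genes of the authors' deposited table was not computed.

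Of 174 tested transcripts of the 42 genes, 0 were called, against 0.0144% of 55749 tested transcripts. At an unadjusted p under 0.05, 27 (15.5%) were higher in mutants and 4 lower, against 3.75% and 3.62% of all tested transcripts. The main form of Stx1a, Stx1a-201, took 71.7 ± 1.92% of the gene's TPM in mutants and 66.4 ± 1.52% in wild type (SD, n = 4 each), with every mutant above. Its transcript had a log2 fold change of 0.27 ± 0.07, with an unadjusted p of 0.00334 but an adjusted p of 0.671, the smallest adjusted p of any member transcript. Of 88 transcripts with at least 10% of their gene's wild-type TPM, the share lay above in every mutant for 2 (Stx1a-201 and Slc17a6-201) and below in every mutant for 2 (Synj1-203 and Syt11-205). Over 36954 such transcripts of all tested genes, the shares were 1.41% above and 1.46% below, so these counts are close to the background. Slc17a6-201, the main coding form of VGLUT2, took 82.8 ± 4.64% of its gene's TPM in mutants and 75.5 ± 0.87% in wild type (SD, n = 4 each). Syt11-205 took 12.2 ± 2.11% in mutants and 15.7 ± 0.68% in wild type.

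Other genes of the vesicle cycle, in lists also chosen with earlier results of these data known, leaned the same way with smaller numbers. Of 84 tested genes in 5 lists (other SNAREs, synaptotagmins, active zone proteins, vesicle membrane proteins and endocytosis proteins), 0 were called, 20 were higher and 2 lower at an unadjusted p under 0.05, against 6.89% and 6.84% of all tested genes. Of them 72 had a fold above 0, against 50.3% of all tested genes, and the median was 0.08. Set-adjusted, 59 of the 84 had a fold above 0, against 48.5% of all tested genes, and the median was 0.04. In that fit 14 were higher at an unadjusted p under 0.05, against 6.48% of all tested genes. Lower were 2 of the 84, against 1448 of 20097 tested genes. The gene with the smallest p in each list was named, with the fold of the genotype fit. Nsf, the ATPase that works with Napb, had a fold of 0.26 ± 0.08 (adjusted p = 0.244), and the calcium sensor Syt10 had 0.73 ± 0.20 (adjusted p = 0.227) from levels under 2 CPM. Rims4, a short RIM, had 0.25 ± 0.06 (adjusted p = 0.205). Synaptoporin (Synpr), a relative of synaptophysin, had 0.31 ± 0.06 (adjusted p = 0.159), and the endocytic adaptor Snap91 had 0.24 ± 0.08 (adjusted p = 0.268). Set-adjusted, Nsf had 0.15, Syt10 0.48, Rims4 0.21, Synpr 0.23 and Snap91 0.12.

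Marker lists were read to describe the tissue. No marker was at 0 in all libraries, which also holds for the markers of other regions, so detection alone cannot establish cortical identity. Summed over 7 excitatory neuron markers, CPM ran from 1435 to 1517 in mutants and from 1580 to 1671 in wild type, with no overlap, while 8 other neuronal markers not specific to synapses ran from 5724 to 5887 in mutants and from 5829 to 6067 in wild type. Of the excitatory list, Neurod6 and Neurod2 were lower in mutants at an unadjusted p under 0.05. The 9 radial glia and progenitor markers (1 above 0) ran from 413 to 516 in mutants and from 489 to 526 in wild type, and the 8 dividing cell markers (0 above 0) from 109 to 180 in mutants and from 164 to 189 in wild type. Astrocyte markers ran from 1255 to 1392 in mutants and from 1047 to 1179 in wild type. Interneuron markers ran from 497 to 553 in mutants and from 538 to 596 in wild type. Oligodendrocyte lineage markers ran from 270 to 295 in mutants and from 236 to 283 in wild type, and microglia markers from 81.1 to 91.2 in mutants and from 72.5 to 80.4 in wild type. The groups did not overlap for the excitatory neuron, astrocyte and microglia lists. For microglia the gap was narrow, from 80.4 in wild type to 81.1 in mutants. At an unadjusted p under 0.05, 5 of the 7 astrocyte genes and 0 of the 7 microglia genes were higher, against 6.89% of all tested genes. In both lists 0 genes were lower. How often sums of other lists of this size separate was not computed. Thalamus and hypothalamus, striatum and red blood cell markers overlapped. With library set added, Neurod6 and the progenitor gene Neurog2 were called lower in mutants. The part of these lists in the result for the 42 genes was not tested.

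**Figure D5:**
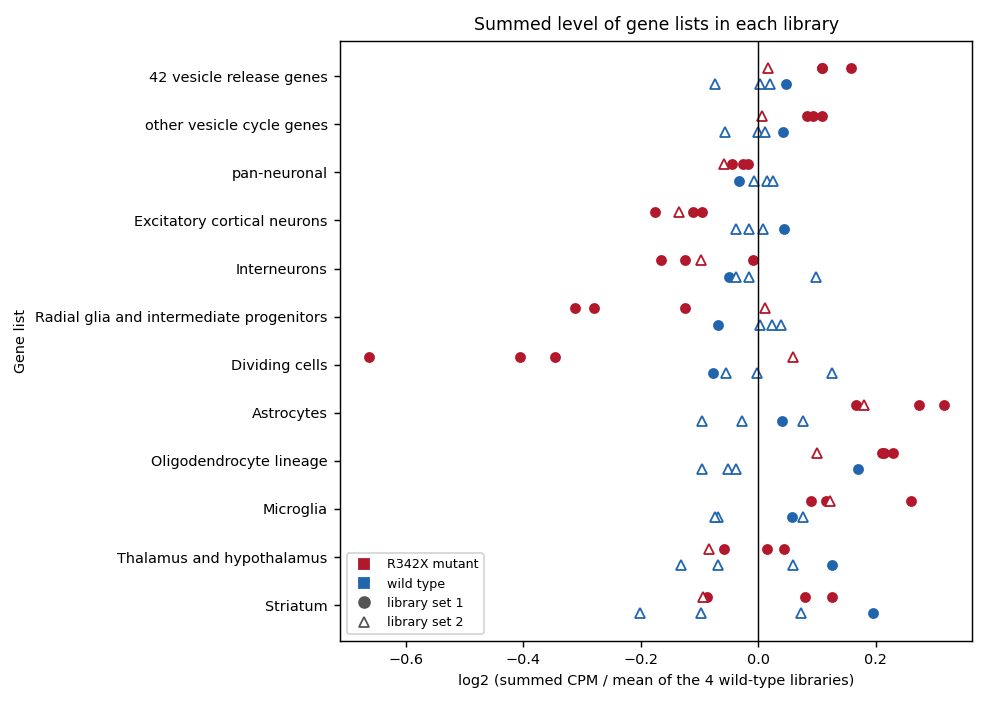
Each point is 1 library, placed by log2 of its summed CPM for a gene list over the mean of the 4 wild-type libraries (horizontal axis), with mutants (red, upper row of each list) above wild type (blue, lower row) and the shape giving the library set. The vesicle release genes lie right of 0 in every mutant library, and also in wild-type replicates 1 to 3. Mutant replicate 4 (6969 CPM) lies below wild-type replicate 1 (7117 CPM) and wild-type replicate 3 (6988 CPM), so the groups overlap. The dividing cell and excitatory neuron lists lie mostly left of 0 in mutants. The part of these lists in the vesicle gene result was not tested.

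The promoters of the 42 genes were also read for 9 letters that make up a part of RE1, the element bound by the repressor REST. In mammals REST silences many neuronal genes, Syn1 among them. RefSeq promoter sequences (GRCm38.p6, from 250 bases before to 50 after a gene's start) held 42 windows for 32 of the 42 genes, and the other 10 genes had none in that table. The letters searched were TTCAGCACC on either strand. They stood in 2 member windows, for Syn1 and Unc13a, and in 122 of all 32851 windows (0.371%). Both are printed because they carry the match, with capitals on the matched letters.
Syn1 promoter: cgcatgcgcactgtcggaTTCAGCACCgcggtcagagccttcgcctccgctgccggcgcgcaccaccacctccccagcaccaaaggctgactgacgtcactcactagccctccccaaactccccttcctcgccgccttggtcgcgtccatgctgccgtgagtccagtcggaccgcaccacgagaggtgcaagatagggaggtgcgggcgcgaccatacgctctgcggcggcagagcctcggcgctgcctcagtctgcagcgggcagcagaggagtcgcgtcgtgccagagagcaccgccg
Unc13a promoter: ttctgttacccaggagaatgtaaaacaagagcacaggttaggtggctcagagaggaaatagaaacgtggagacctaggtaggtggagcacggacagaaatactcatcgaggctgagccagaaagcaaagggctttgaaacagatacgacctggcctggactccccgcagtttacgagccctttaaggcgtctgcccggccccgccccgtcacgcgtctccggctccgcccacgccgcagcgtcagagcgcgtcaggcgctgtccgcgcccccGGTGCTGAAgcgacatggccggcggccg
The Syn1 window is chrX:20920869-20921168 on the minus strand, with the match 232 bases upstream of the start, and the Unc13a window is chr8:71671708-71672007 on the minus strand, with the match on the opposite strand 23 bases downstream. A match describes letters only. Syn1 had every mutant above every wild-type library, and the groups overlapped for Unc13a, which averaged 281 ± 14.5 CPM over the mutants, against 260.3 ± 24.4 CPM over the wild-type libraries (SD, n = 4 each).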

How the data were processed

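Messenger RNA from newborn mouse cortex was quantified in 8 libraries. Per the file headers, the deposited files give an estimated count (expected count) and a TPM for each transcript. The submitters' processing notes name Salmon 0.12.0, DESeq2 and GRCm38. Per its file header, the authors' deposited table holds a mean signal level, log2 fold changes with standard errors, and p-values. The sources used here do not state the use of strand in counting, or the model and shrinkage behind that table.

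Counts were summed per gene, rounded, and tested for genotype with edgeR 4.0.16 in R 4.3.3 (TMM, quasi-likelihood F test, two-sided, default filter, Benjamini-Hochberg adjustment over all tested genes, threshold 0.05). Standard errors come from the fold and its F statistic. The script was tested on simulated data. DESeq2 1.42.0, limma 3.58.1 voom and the other alternatives are given at the end. Coordinates and exons come from GENCODE for GRCm38. Named genes are the 12 members with the smallest p and the highest-TPM member of each role group. The members and gene lists were chosen with earlier results of these data known. 1 marker of the excitatory neuron list is not reported here and was left out of its sum.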

Additional observations from a re-analysis of the deposited data

Results flagged for a closer look

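Of 156 groups of 4 libraries examined (by genotype, the CPM of each of the 42 genes and of Phf6, the summed TPM of the 42, and each family share), 19 held 1 library whose gap to the nearest other library exceeded the 95% limit of Dixon's test, as a part of the group's range. Chance gives about 1 in 20. Wild-type replicate 1 was lowest in its group for Rab3a (0.859), Vamp2 (0.992) and Syt5 (0.897) and highest for Rab3c (0.875), Rims2 (0.948) and Pclo (0.835). Mutant replicate 4 was lowest for Syngr3 (0.904), Sv2b (0.907) and Stx1a (0.899) and highest for Syt5 (0.876). Mutant replicate 2 was highest for Unc13b (0.864). Among family shares, wild-type replicate 1 was lowest for Rab3a (0.953) and Bsn (0.919) and highest for Rab3c (0.961), Sv2c (0.871) and Pclo (0.919). Mutant replicate 4 was highest for the share of Syt7 (0.885) and Erc2 (0.886) and lowest for Erc1 (0.886).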

How the results depend on the processing

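In the 16 named genes, 237 of 240 values under alternative settings kept their direction, 3 turned and 17 passed the threshold only under the alternative. The sign of the log2 fold change turned for Rab3a (0.018) and Syt5 (0.032) with the library set as a term. It also turned for Erc2 without wild-type replicate 4, where leaving out a library gave −0.002 to 0.052. The cause was not tested. Against 4 genes called, DESeq2 called 401, no filter 13, the library set as a term 121, and leaving out each library in turn 3 to 699. For members, against 0 called, DESeq2 called 7 and leaving out a library gave 0 to 12. For transcripts, against 8 called, DESeq2 called 363, limma-voom 0, a stricter filter 5, the library set as a term 1, and leaving out a library 0 to 12. For member transcripts, against 0 called, DESeq2 called 1 and leaving out a library gave 0 to 1. For the pathway lists, against 0 called, DESeq2 called 3 and leaving out a library gave 0 to 8. Of 306 comparisons of family shares, 3 moved by more than the spread between replicates. With replicate number as a block, 20 genes and 0 transcripts were called, but same-numbered libraries share only a number, with correlations of their deviations of 0.244, −0.027, −0.085 and 0.318. Depth was lower in every mutant library, which limits the precision of low genes such as Unc13c.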
